A study of Mus musculus with 9 samples.

Results

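Hormone genes whose usual home is the pituitary gland or fat were followed in thymic epithelial cells (TEC), sorted from mice given recombinant amphiregulin (rAREG) or its vehicle. The genes were the rows of the UMI count table with one of 10 symbols, Gh, Cga, Prl, Pomc, Tshb, Lhb, Fshb, Adipoq, Lep and Retn. Of these 10, 7 had a row among the 15080 genes of the table, and Prl, Fshb and Lep were not analysed here. Gh, Cga and Adipoq are described in most depth, and these 3 were singled out with their difference between the groups already known. Their fold changes are therefore given as a description. All mice were young wild-type males, and the epithelium was collected 10 days after an injection into the thymus. The rAREG group received 1 µg of the protein, a ligand of the EGF receptor, and gave 5 libraries; the vehicle group received PBS, was matched for age and gave 4. The libraries were bulk 3′-end libraries made by the MARS-seq method, in which each captured RNA molecule is counted by a unique molecular identifier (UMI). Nothing in the labels ties a library to a single mouse, and errors and p-values therefore measure only the spread between libraries, which may be technical.

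The medulla of the thymus shows developing T cells fragments of proteins from the whole body. Its epithelial cells transcribe, each in a small share of cells, many genes that belong to other organs, and the transcriptional regulators Aire and Fezf2 drive parts of this tissue-restricted antigen programme. T cells that bind such self-antigens strongly are deleted or turned into regulatory T cells. In the pituitary, Gh encodes growth hormone, and Cga encodes the alpha subunit shared by thyrotropin, luteinizing hormone and follitropin, whose beta subunits come from Tshb, Lhb and Fshb. Pomc encodes the precursor of corticotropin and melanocortins. In fat, Adipoq encodes adiponectin, and in rodents Retn encodes the fat hormone resistin.

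The libraries held 1523246 to 2159115 UMI counts. Markers of the labelled cell type were present, with the epithelial adhesion gene Epcam averaging 211 ± 13.5 in rAREG, in UMI counts scaled to library size (CPM; SD, n = 5), and 216 ± 21.2 CPM in vehicle (SD, n = 4). In an edgeR quasi-likelihood test over 11636 genes, 1.05% had an adjusted p under 0.05 (Benjamini-Hochberg), namely 0.559% higher and 0.49% lower in rAREG. The count of 122 such genes rested on single libraries, and was 18 without vehicle replicate 1.

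Gh, Cga and Adipoq had higher levels in rAREG than in vehicle libraries, with folds of 1.87, 2.01 and 2.21 in the fit. For each of the 3 genes, all 5 rAREG libraries lay above all 4 vehicle libraries. The other pituitary and fat hormones with a row, Pomc, Retn, Lhb and Tshb, had overlapping groups. Of the 5 hormone genes that passed the filter on low counts, 3 had an adjusted p under 0.05, all higher in rAREG, against the 0.559% of all genes tested. Groups did not overlap in 4.92% of all genes tested, with rAREG higher in 2.48% and lower in 2.44%. Nothing is read from these member counts, because the members were proposed with this contrast known.

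Gh, the growth hormone gene (chromosome 11, 106300271 to 106301865, minus strand, GRCm38), gave 34, 46, 43, 45 and 38 UMI counts in rAREG replicates 1 to 5, against 13, 24, 26 and 26 in vehicle replicates 1 to 4. Scaled to CPM, with library sizes adjusted by TMM factors, these were 21.9, 24.3, 19.9, 22.9 and 20.02 in rAREG, against 6.54, 13.2, 12.4 and 14.6 in vehicle. The lowest rAREG library was above the highest vehicle library, and vehicle replicate 1 stood below the other vehicle libraries. The means were 21.8 ± 1.86 CPM in rAREG (SD, n = 5) and 11.7 ± 3.54 CPM in vehicle (SD, n = 4). The fitted log2 fold change was 0.90 ± 0.216 (SE; edgeR, adjusted p = 0.045). The authors' deposited table, which gives PBS over AREG and so the opposite sign, listed Gh at −0.91 with an adjusted p of 0.053. Gh passed in 1 of 9 fits that left out a library, the one without vehicle replicate 4 (adjusted p = 0.030). In the other 8 its adjusted p was 0.051 to 0.19, and its log2 fold change was lowest, at 0.70, without vehicle replicate 1.

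Cga, the glycoprotein hormone alpha subunit (chromosome 4, 34893779 to 34907370, plus strand), gave 58, 90, 65, 97 and 76 UMI counts in rAREG replicates 1 to 5, against 42, 26, 34 and 53 in vehicle replicates 1 to 4. In CPM these were 37.4, 47.5, 30.1, 49.3 and 40.0 in rAREG, against 21.1, 14.3, 16.2 and 29.7 in vehicle. The groups did not overlap but nearly touched, rAREG replicate 3 at 30.1 and vehicle replicate 4 at 29.7 CPM. The means were 40.9 ± 7.79 CPM in rAREG (SD, n = 5) and 20.4 ± 6.88 CPM in vehicle (SD, n = 4). The log2 fold change was 1.01 ± 0.202 (SE; edgeR, adjusted p = 0.019), and the authors' deposited table gave −1.01 for PBS over AREG with an adjusted p of 0.0058. Cga passed without vehicle replicate 4 or without rAREG replicates 1, 3 or 5. It did not pass without vehicle replicates 1, 2 or 3 (adjusted p = 0.075, 0.084 and 0.060) or without rAREG replicates 2 or 4 (adjusted p = 0.072 and 0.051).

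Adipoq, the adiponectin gene (chromosome 16, 23146536 to 23158028, plus strand), gave 23, 34, 30, 43 and 21 UMI counts in rAREG replicates 1 to 5, against 13, 13, 14 and 15 in vehicle replicates 1 to 4. In CPM these were 14.8, 17.9, 13.9, 21.9 and 11.1 in rAREG, against 6.54, 7.16, 6.68 and 8.41 in vehicle. All rAREG libraries were above all vehicle libraries, and rAREG replicate 4 was the highest. The means were 15.9 ± 4.13 CPM in rAREG (SD, n = 5) and 7.20 ± 0.850 CPM in vehicle (SD, n = 4). The log2 fold change was 1.14 ± 0.254 (SE; edgeR, adjusted p = 0.031), and the authors' deposited table gave −1.15 for PBS over AREG with an adjusted p of 0.034. Adipoq passed without vehicle replicate 4 or without rAREG replicates 3 or 5. It did not pass without vehicle replicates 1, 2 or 3 (adjusted p = 0.11, 0.089 and 0.077) or without rAREG replicates 1, 2 or 4 (adjusted p = 0.061, 0.096 and 0.087).

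**Figure D1:**
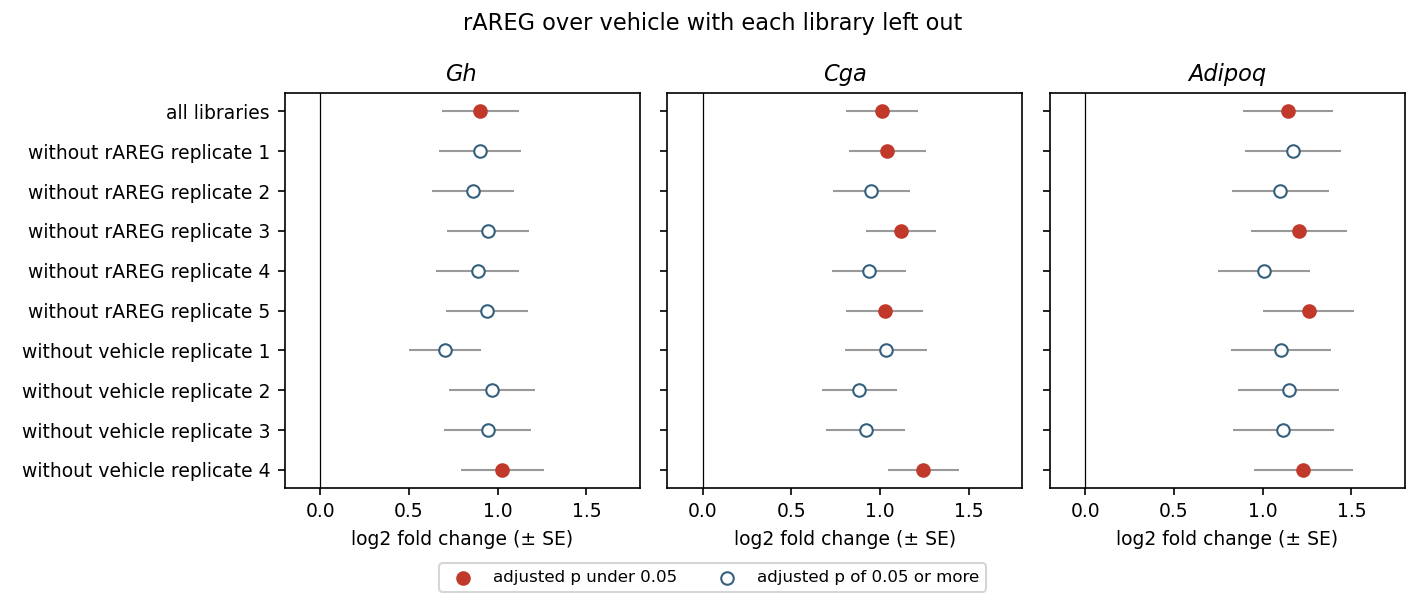
Log2 fold change of rAREG over vehicle (x axis, ± SE) for Gh, Cga and Adipoq with all 9 libraries and with each library left out in turn (y axis); filled red points had an adjusted p under 0.05, open points did not. The fold change stayed positive in each fit, and 1, 4 and 3 of 9 fits passed for Gh, Cga and Adipoq.

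The counts behind these levels were small. Counting error alone gives Gh a coefficient of variation of 15.6% at the mean count of the rAREG libraries, whereas the measured value was 8.54% in rAREG. For Adipoq in vehicle the counting value was 27.0% and the measured one 11.8%. In these cases the libraries lay closer together than their counts allow on average, so the SD understates the error. The other group of each gene varied more than counting error alone gives. Gh in vehicle was at 30.3% against 21.2%, and Adipoq in rAREG at 25.9% against 18.2%. For Cga the measured coefficients, 19.1% in rAREG and 33.8% in vehicle, exceeded the counting values of 11.4% and 16.1%.

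The corticotropin precursor gene Pomc (chromosome 12, 3954951 to 3960642, plus strand) gave the highest counts of the 7 genes. It was at 148, 107, 90.4, 173 and 105 CPM in rAREG replicates 1 to 5, against 108, 195, 91.2 and 150.3 CPM in vehicle replicates 1 to 4. The groups overlapped over nearly their whole range. The log2 fold change was −0.13 ± 0.269 (SE; edgeR, adjusted p = 0.89), and without vehicle replicate 2 it was 0.10.

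The resistin gene Retn (chromosome 8, 3655770 to 3660110, plus strand) was at 16.1, 6.33, 11.6, 15.3 and 11.6 CPM in rAREG, against 7.55, 9.91, 8.59 and 15.1 CPM in vehicle. Both the lowest and the highest library were rAREG libraries. Its log2 fold change was 0.24 ± 0.285 (SE; edgeR, adjusted p = 0.77). Retn and Adipoq, the 2 fat hormone genes with a row, thus had fold changes of 1.18 and 2.21; the difference between the 2 was not tested.

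The beta subunit genes were close to the detection limit and did not pass the filter. Lhb (chromosome 7, 45420820 to 45421897, plus strand) gave 2, 5, 3, 4 and 3 UMI counts in rAREG, against 8, 2, 8 and 9 in vehicle. Tshb (chromosome 3, 102775465 to 102782718, minus strand) gave 2, 3, 6, 3 and 2 UMI counts in rAREG, against 4, 3, 3 and 1 in vehicle. Its highest count of 6 equals the lowest peak count of any gene in the table, so Tshb is the member just inside the limit. Fitted with no filter, Lhb was at −0.95 ± 0.521 and Tshb at 0.22 ± 0.650 in log2 (SE; edgeR, adjusted p = 0.49 and 0.93). Lhb overlaps Ruvbl2, and Tshb overlaps Tspan2, each on the opposite strand, and no source used here gives the strand setting of the counting, so reads of such pairs cannot be told apart. Cga likewise overlaps Platr9. Ruvbl2, at 60.7 ± 10.5 CPM in rAREG (SD, n = 5) and 57.4 ± 7.30 CPM in vehicle (SD, n = 4), was far above Lhb, so the few Lhb counts are uncertain.

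**Figure D2:**
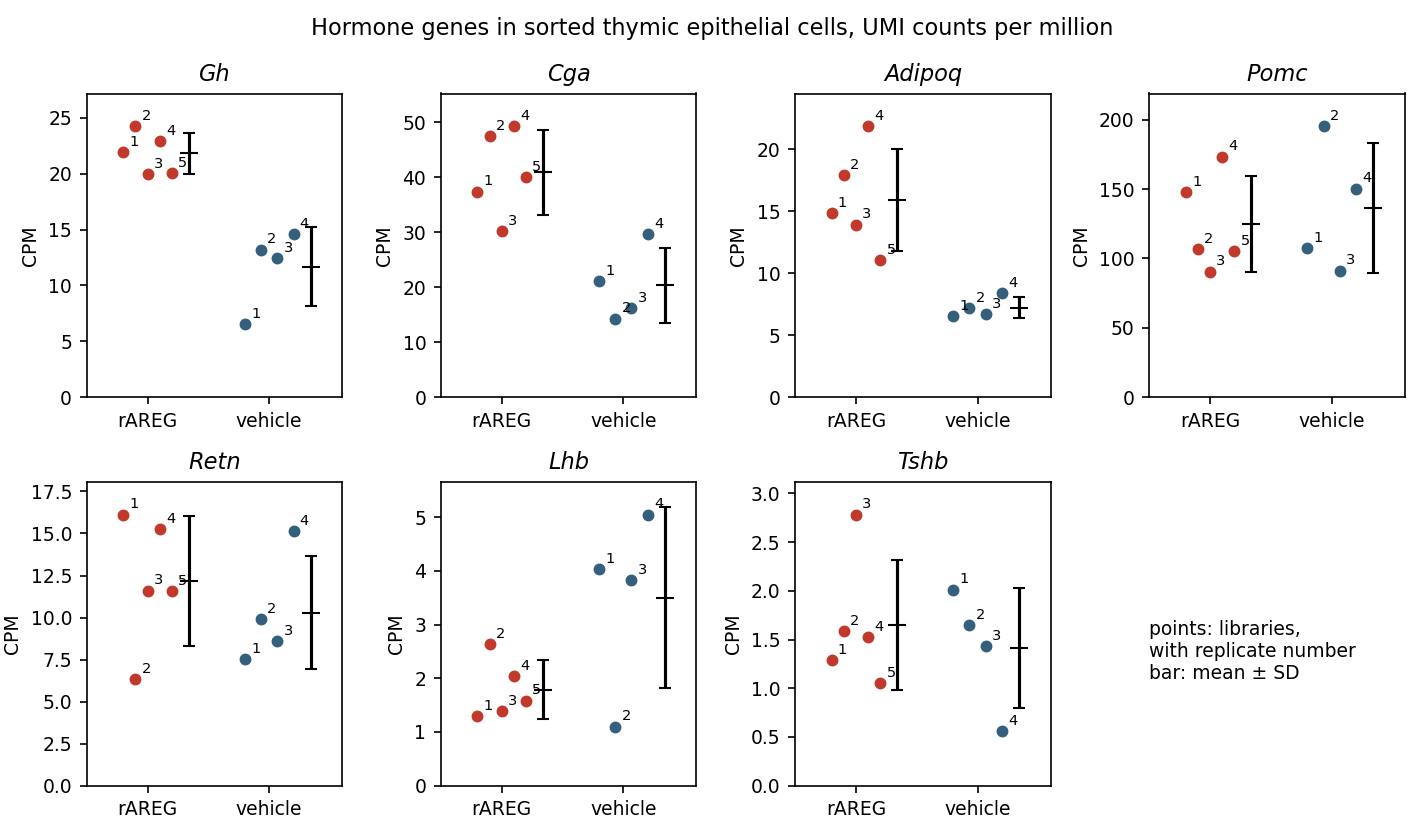
Level of the 7 hormone genes in CPM (y axis, from 0, its own scale per gene) in the 5 rAREG and 4 vehicle libraries; points are libraries with their replicate number, bars are the mean ± SD. Gh, Cga and Adipoq had no overlap between the groups, and Pomc, Retn, Lhb and Tshb did.

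A UMI stands for 1 captured molecule in a 3′-end library, so counts of different genes were set side by side without division by gene length. How well each gene was captured was not measured, so these are ratios of counts. Summed over each group, the alpha subunit gene Cga had 386 UMI counts in rAREG and 155 in vehicle, while Lhb and Tshb together had 33 in rAREG and 38 in vehicle. Per library, Cga had 7.22 to 15.2 counts for each count of the 2 beta subunit genes in rAREG and 3.09 to 5.30 in vehicle. Cga thus had more UMI counts than Lhb and Tshb together in every library of both groups. The ratios rest on few counts of the 2 beta subunit genes, and those of Lhb are uncertain. By the mean over all 9 libraries of both groups, 91.5% of the 15080 genes had a lower CPM than Pomc, 65.7% than Cga, 51.1% than Gh, 42.1% than Adipoq and 40.8% than Retn. The order of the last pair differed by group: Adipoq averaged 15.9 CPM and Retn 12.2 CPM in rAREG, while Adipoq averaged 7.20 CPM and Retn 10.3 CPM in vehicle. Gh, Adipoq and Retn do not differ in level beyond their spread in vehicle, where their ranges were 6.54 to 14.6, 6.54 to 8.41 and 7.55 to 15.1 CPM.

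The count of Cga per count of Gh was 1.51 to 2.16 in rAREG and 1.08 to 3.23 in vehicle. The count of Adipoq per count of Gh was 0.553 to 0.956 in rAREG and 0.538 to 1.00 in vehicle. The count of Cga per count of Adipoq was 2.17 to 3.62 in rAREG and 2.0 to 3.53 in vehicle. All 3 ratios overlapped between the groups. As multiples of the vehicle mean, Gh was at 1.71 to 2.08 in the rAREG libraries, Cga at 1.48 to 2.42 and Adipoq at 1.54 to 3.04. Replicates 2 and 4 were the highest of the rAREG libraries for all 3 genes.

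**Figure D3:**
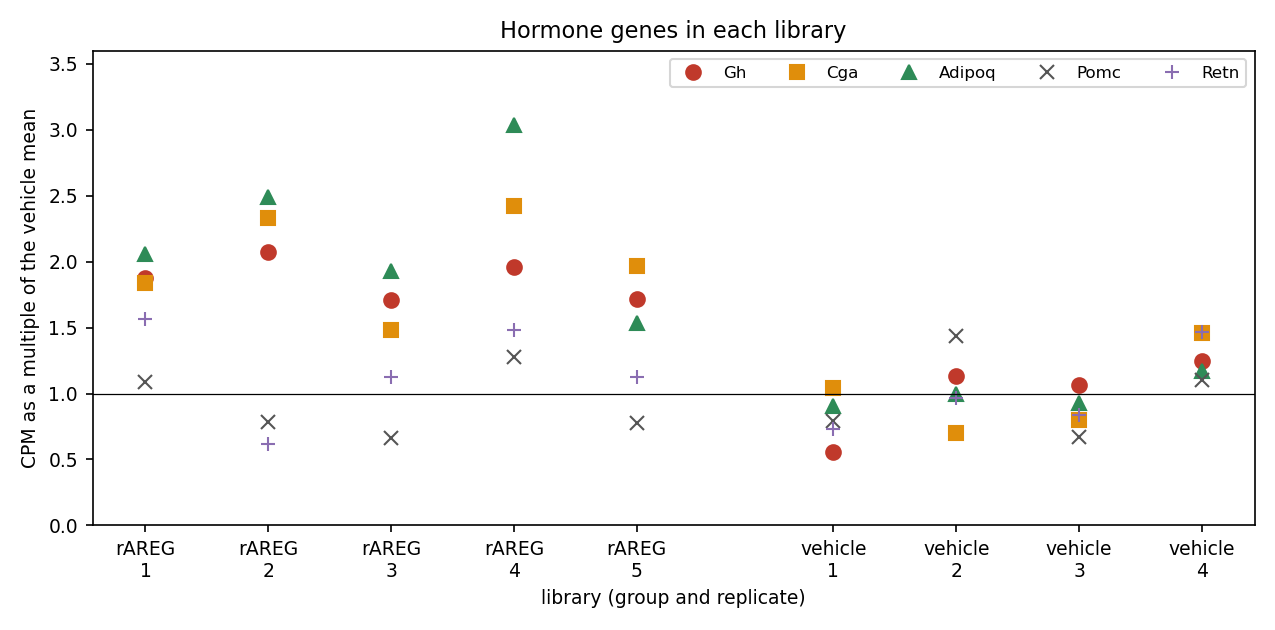
CPM of Gh, Cga, Adipoq, Pomc and Retn in each library as a multiple of that gene's vehicle mean (y axis, from 0; the line marks 1), rAREG libraries left and vehicle libraries right. Gh, Cga and Adipoq lay at 1.48 to 3.04 in the rAREG libraries, and Pomc and Retn were spread on both sides of 1.

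Aire rose to 1159 ± 168 CPM in rAREG (SD, n = 5), against 729 ± 157 CPM in vehicle (SD, n = 4; adjusted p = 0.037 in edgeR), and Fezf2 to 625 ± 65.0 CPM, against 445 ± 60.0 CPM (adjusted p = 0.042). By library, rAREG replicates 2 and 4 were also the highest for Aire, at 1335 and 1278 CPM. They were the highest for Fezf2 too, at 679 and 671 CPM, and for Igfals, a gene described below, at 88.6 and 93.6 CPM. Vehicle replicate 1, the lowest of all for Gh and Adipoq, was the lowest for Aire, Fezf2 and Igfals, at 497, 355 and 44.8 CPM. For Cga it was not the lowest, at 21.1 CPM against 14.3 and 16.2 CPM in vehicle replicates 2 and 3. For Adipoq the vehicle libraries had 13 to 15 UMI counts, too close to rank. The part of these 2 regulators in the hormone gene levels was not tested. Aire and Fezf2 passed in 2 of 9 fits that left out a library, those without vehicle replicate 4 or rAREG replicate 3. With log2 library size as a covariate neither passed (adjusted p = 0.059 for Aire and 0.060 for Fezf2).

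Start sites of the hormone genes were compared in windows of 250 bases before to 50 bases after the annotated start (RefSeq, GRCm38.p6). Windows were matched for 6 of the 7 genes, Cga, Adipoq, Pomc, Retn, Lhb and Tshb. Those of Cga and Adipoq are shown because both genes had higher levels in rAREG, and that of Pomc because it did not; the TATA box and CCAAT box matches are in capitals.
Cga, chr4:34893529-34893828, plus strand: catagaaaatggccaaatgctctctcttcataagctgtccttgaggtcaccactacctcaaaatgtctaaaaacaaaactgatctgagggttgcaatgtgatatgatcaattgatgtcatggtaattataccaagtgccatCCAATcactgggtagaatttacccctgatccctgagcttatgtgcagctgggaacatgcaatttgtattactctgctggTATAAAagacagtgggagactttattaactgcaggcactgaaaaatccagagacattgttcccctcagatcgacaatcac
Adipoq, chr16:23146286-23146585, plus strand: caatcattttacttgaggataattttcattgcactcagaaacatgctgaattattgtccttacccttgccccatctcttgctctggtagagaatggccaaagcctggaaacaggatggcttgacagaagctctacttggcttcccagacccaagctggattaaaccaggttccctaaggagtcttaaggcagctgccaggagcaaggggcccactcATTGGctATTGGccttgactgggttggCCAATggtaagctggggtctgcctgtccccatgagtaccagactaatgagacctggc
Pomc, chr12:3954695-3954994, plus strand: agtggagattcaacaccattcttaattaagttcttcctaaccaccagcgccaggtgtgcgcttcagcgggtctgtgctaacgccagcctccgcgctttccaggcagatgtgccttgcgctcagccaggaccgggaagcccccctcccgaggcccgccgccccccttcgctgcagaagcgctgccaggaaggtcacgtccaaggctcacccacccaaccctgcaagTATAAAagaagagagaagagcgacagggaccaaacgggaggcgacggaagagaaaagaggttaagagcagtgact

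The TATA box was searched as TATAAA and the CCAAT box as CCAAT, on both strands; no matches overlapped in these 3 windows. A TATA box stood 30 bases before the start of Cga and 25 bases before that of Pomc, and the Adipoq window held none. Of the 6 windows 4 held a TATA box, those of Cga, Pomc, Lhb and Tshb, against 13.6% of 32851 windows of the same length. A CCAAT box was in 3 of the 6, those of Cga, Adipoq and Lhb, against 37.4% of all windows. The full cAMP response element TGACGTCA was in none of the 6 and in 1.79% of all windows. The presence of a TATA box did not separate Cga and Adipoq from Pomc and Retn, since each pair held a gene with one and a gene without. A match of letters is a description and shows no binding.

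Genes that build and control the hormone-producing cells of the pituitary were mostly too low to test. Of 19 such regulators, 9 had a row, 2 were tested and neither passed, and Pou1f1, the factor that drives Gh in pituitary cells, was not analysed here. Isl1, a homeodomain factor, averaged 85.8 ± 12.9 CPM in the 5 rAREG libraries and 107 ± 21.6 CPM in the 4 vehicle libraries (± SD here and for all list genes; edgeR, adjusted p = 0.33). Sstr2, a somatostatin receptor, was at 10.04 ± 4.19 CPM in rAREG and 7.99 ± 1.85 CPM in vehicle (adjusted p = 0.70). Among the 7 that were not tested, and named after their values were seen, the transcription factor gene Gata2 had 29 UMI counts over the rAREG libraries and 9 over the vehicle libraries, and Pitx1, a homeodomain factor gene, had 6 in rAREG and 16 in vehicle. The groups overlapped for both. Of 12 genes of prohormone processing and secretory granules, 8 were tested and none passed, with a median log2 fold change of −0.18. The granule protein gene Chga varied widely, from 286 CPM in rAREG replicate 1 to 4088 CPM in rAREG replicate 3, against 1650 to 2546 CPM in vehicle. The granule chaperone gene Scg5 was at 72.1 ± 5.92 CPM in rAREG and 69.7 ± 14.7 CPM in vehicle (adjusted p = 0.92).

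Receptors and signalling genes of these hormones were mostly without a call. Of 14 receptor genes, 4 had a row and all 4 were tested, and none passed. The growth hormone receptor gene Ghr was at 14.9 ± 3.08 CPM in rAREG and 15.5 ± 3.59 CPM in vehicle (edgeR, adjusted p = 0.93). The adiponectin receptor gene Adipor2 was at 52.5 ± 11.8 CPM in rAREG and 55.9 ± 6.02 CPM in vehicle (adjusted p = 0.86). Adipor1, also an adiponectin receptor gene, was named after its values were seen. It was at 5.88 ± 0.991 CPM in rAREG and 7.71 ± 0.522 CPM in vehicle (edgeR, adjusted p = 0.58). All its rAREG libraries lay below all vehicle libraries, as in 2.44% of all genes tested, at 10 to 13 against 14 to 15 UMI counts. Of 11 genes of growth hormone signalling, 1 passed, higher in rAREG, and 10 did not, with a median log2 fold change of 0.035; among all genes tested 1.05% passed and 0.559% were higher. The gene that passed was Igfals, which encodes the acid-labile subunit of the complex that carries insulin-like growth factors in blood. It gave 76.8, 88.6, 58.4, 93.6 and 73.8 CPM in rAREG, against 44.8, 61.7, 48.2 and 49.9 CPM in vehicle. Only rAREG replicate 3 lay below the highest vehicle library. Its log2 fold change was 0.61 ± 0.144 (SE; edgeR, adjusted p = 0.042). Without vehicle replicates 1, 2 or 3 its adjusted p was 0.17, 0.052 and 0.099, and without rAREG replicates 1, 2 or 4 it was 0.073, 0.13 and 0.11. A library size covariate gave 0.060.

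No tested adipocyte gene besides the hormones passed the test. Of 18 such genes, 15 had a row and 12 were tested, and none passed, with a median log2 fold change of −0.079 and 5 of 12 positive. Summed over the 15 genes, their level was 819 to 947 CPM in the rAREG libraries and 843 to 943 CPM in the vehicle libraries. The most abundant genes, Fabp4, Pnpla2 and Cebpb, led this sum, so it says little about the genes with low counts. Fabp4, a fatty acid binding protein, was at 280.3 ± 34.1 CPM in rAREG and 295 ± 34.7 CPM in vehicle (edgeR, adjusted p = 0.83). Cebpb, a transcription factor of adipocyte differentiation, was at 160 ± 22.7 CPM in rAREG and 176 ± 35.4 CPM in vehicle (adjusted p = 0.71). The genes that follow were named after their values were seen. Car3, a carbonic anhydrase abundant in fat, had the highest fold change of the list, at 10.7 ± 3.38 CPM in rAREG and 5.48 ± 4.85 CPM in vehicle, and did not pass (0.96 ± 0.492 in log2, SE; adjusted p = 0.43 in edgeR). Lpl, which encodes lipoprotein lipase, had 23 to 43 UMI counts in rAREG libraries and 20 to 51 in vehicle libraries. Both genes overlapped between the groups. Pnpla2, Dgat2, Cebpa and Slc2a4 were among the markers above Lpl. They averaged 174, 83.6, 67.3 and 54.8 CPM in rAREG, against 150, 74.6, 71.2 and 54.5 CPM in vehicle. Cfd, Pparg and Cidec had lower counts than Lpl. The adipsin gene Cfd had 1 to 7 UMI counts in rAREG libraries and 1 to 6 in vehicle libraries. Pparg, the master regulator of fat cells, had 3 to 5 counts in rAREG and 4 to 17 in vehicle. Cidec, a lipid droplet protein, had 2 to 16 counts in rAREG and 6 to 17 in vehicle.

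Of 26 other peptide hormone genes, 21 had a row and 18 were tested, and none passed over all genes. The median log2 fold change was 0.33, with 14 of 18 positive, against a median of −0.0054 and 49.2% positive among all genes tested. The parathyroid hormone gene Pth was the most abundant and gave 261, 1714, 5340, 918 and 1153 CPM in rAREG replicates 1 to 5, against 2807, 2895, 2235 and 2142 CPM in vehicle replicates 1 to 4. Of the 5 rAREG libraries, 4 lay below all vehicle libraries and 1, replicate 3, lay above them. Fgf21, a metabolic hormone of the fibroblast growth factor family, was at 456 ± 122 CPM in rAREG and 341 ± 77.3 CPM in vehicle (edgeR, adjusted p = 0.41). Calca and Inhbb were named after their values were seen, as the members with the lowest adjusted p. Calca, the calcitonin and CGRP gene, was at 253 ± 57.9 CPM in rAREG and 155 ± 33.1 CPM in vehicle, with 4 of 5 rAREG libraries above all vehicle libraries (log2 fold change 0.71 ± 0.171, SE; edgeR, adjusted p = 0.069). Inhbb, an inhibin and activin beta subunit gene, was at 15.3 ± 2.57 CPM in rAREG and 8.89 ± 0.937 CPM in vehicle. Its log2 fold change was 0.79 ± 0.225 (SE, edgeR, adjusted p = 0.098). All its rAREG libraries lay above all vehicle libraries, as in 2.48% of all genes tested. The unadjusted p was under 0.05 for 1543 of the 11636 genes tested.

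**Figure D4:**
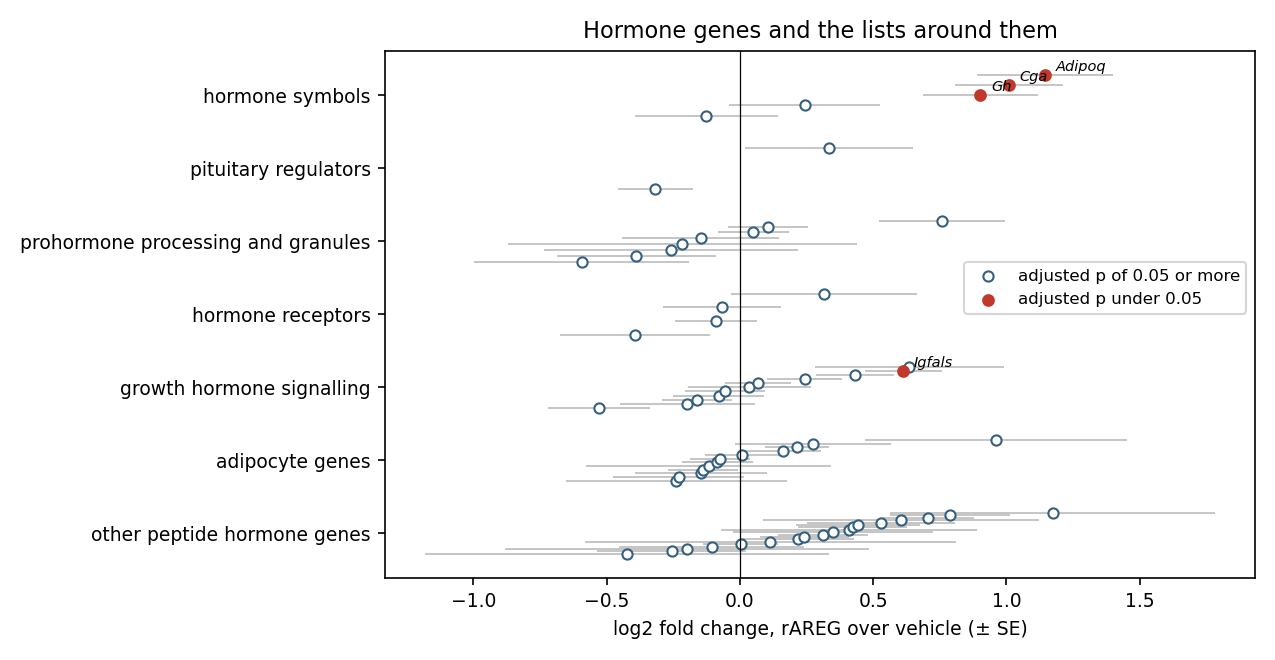
Log2 fold change of rAREG over vehicle (x axis, ± SE) for each tested gene of the hormone symbols and of 6 lists around them (y axis); filled red points had an adjusted p under 0.05. Beside Gh, Cga and Adipoq, Igfals was the only gene of these lists to pass.

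Markers of other cells that a sort of thymic epithelium could carry were set beside these results. Dendritic cell and macrophage markers summed to 519 to 670 CPM in rAREG and 422 to 475 CPM in vehicle, with no overlap, over 9 of 10 genes with a row; 7 were tested, all 7 were positive and none passed. Most of that sum came from Lyz2, at 314 ± 51.1 CPM in rAREG and 260.5 ± 27.3 CPM in vehicle (edgeR, adjusted p = 0.32), and Fscn1, at 175 ± 19.1 and 122 ± 27.2 CPM (adjusted p = 0.054). Thymocyte markers summed to 63.3 to 138 CPM in rAREG and 67.3 to 121 CPM in vehicle, with Lck and Dntt the most abundant (adjusted p = 0.99 and 0.97). Fibroblast and endothelial markers summed to 241 to 547 CPM in rAREG and 283 to 909 CPM in vehicle. Of these, 7 were tested, 1 was positive and none passed, with a median log2 fold change of −0.33. The most abundant were Dcn and Col3a1 (edgeR, adjusted p = 0.38 and 0.99). Dcn was at 250 ± 79.8 CPM in rAREG and 472 ± 237 CPM in vehicle. Among all genes tested 49.2% had a positive log2 fold change. Of 5 red cell genes only Alas2 had a row (adjusted p = 0.98). No marker with a row was at 0 in every library of a group. The part of these cells in the hormone gene levels was not tested, and in bulk libraries fewer cells of a type and less RNA per cell cannot be told apart.

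For each of Gh, Cga and Adipoq the 5 genes with the most similar pattern were found among 9135 genes with a mean of at least 10 CPM. The measure was the Pearson correlation of log2 CPM over the 9 libraries. Symbols made of Gm and a number, ending in Rik or holding -ps were left out beforehand. For Gh they were Laptm5, Alox12e, Hal, Sspo and Tnp2, with r of 0.97 to 0.98, and 0.90 to 0.98 after each group was centred on its mean. For Cga they were Uqcrfs1, Cox5a, Il23a, Pkig and Lbhd2, with r of 0.95 to 0.98, and 0.83 to 0.97 after centring. For Adipoq they were Vrk2, Sema3b, Exoc3l4, Nrep and Vav2, with r of 0.93 to 0.95, and 0.61 to 0.80 after centring. The 3 sets had no gene in common. Among the hormone genes themselves, r after centring was 0.13 for Gh with Cga, 0.43 for Gh with Adipoq and 0.54 for Cga with Adipoq. These values are descriptions, picked from many genes over few libraries, and the libraries share the split into groups.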

How the data were processed

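TEC were sorted from enzymatically dissociated thymus and 3′-end libraries were made by MARS-seq, per the labels' protocols. STAR 2.5.2b, HTSeq, cutadapt, bcl2fastq, DESeq2 and the build mm10 appear in the submitters' processing notes without their roles. Strand use in counting was not found in any source used here. The authors deposited raw UMI counts, on which every test rests. Their deposited normalised signal is each library's counts over 1 size factor (0.824 to 1.15), and 100% of values times that factor equalled the raw counts within a relative 1e-06, so a count test on the recovered whole reads is the same fit, with the same 122 genes. The deposited regularised log2 values were not used. The authors' log2 fold changes with adjusted p-values are quoted where named.

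The main test was edgeR 4.0.16 under R 4.3.3 (quasi-likelihood with robust dispersion, TMM scaling and the filterByExpr filter), with Benjamini-Hochberg adjustment over 11636 of 15080 genes; 3444 were left out by the filter. SE is the log2 fold change divided by the square root of F. A count of 0 would allow 3 counts, or 1.39 to 1.94 CPM, for counting error only. Positions are from GENCODE on GRCm38. The members and all gene lists were chosen with earlier results of these data known. Named by rule were, in each list, the genes that passed or else the 2 most abundant tested, the 5 most correlated genes per member, and Aire and Fezf2. Alternatives were DESeq2 1.42.0, other scalings and filters, library size as a covariate, replicate blocks and leaving out each library. Figures used matplotlib 3.10.9.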

Additional observations from a re-analysis of the deposited data

Results flagged for a closer look

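A library stood apart from the rest of its group, by Dixon's gap test, in 2 of 54 combinations of a named gene and a group; chance alone marks about 1 in 20. Pth was at 5340 CPM in rAREG replicate 3, against 261 to 1714 CPM in the other rAREG libraries. Pth and Chga were both highest in rAREG replicate 3 and lowest in rAREG replicate 1, Chga at 4088 and 286 CPM. Fezf2 was at 355 CPM in vehicle replicate 1, against 473 to 477 CPM in the other vehicle libraries. None of the 7 hormone genes of the report stood apart in this way in either group.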

How the results depend on the processing

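The count of genes with an adjusted p under 0.05, 122 with all libraries in edgeR, was 197 with DESeq2 and 18 to 230 when a library was left out. It was 58, 28 and 54 without rAREG replicates 1, 2 and 4, and 18, 43 and 230 without vehicle replicates 1, 2 and 4. In log2 fold change with a library left out, Gh was at 0.70 to 1.03, Cga at 0.88 to 1.24, Adipoq at 1.01 to 1.26 and Pomc at −0.27 to 0.10. Pomc thus changed sign in 1 of 9 such fits, without vehicle replicate 2, and passed in none. Fewer libraries enter these fits, and vehicle keeps 3 when 1 of its 4 is left out. With log2 library size as a covariate Gh was at 0.89 and lost its call (adjusted p = 0.064), as did Aire, Fezf2 and Igfals (0.059 to 0.060). With DESeq2 the adjusted p was 0.035 for Gh, 0.0037 for Cga and 0.022 for Adipoq. The authors' deposited table listed 0.053 for Gh, which does not pass. Whether replicate numbers pair the libraries could not be settled from so few pairs. The correlation of deviations between same-numbered libraries was −0.025 to 0.17 by title number, and −0.036 to 0.080 by library number. By title number rAREG replicate 4 correlated best with the vehicle library of its own number, and the others did not. By library number no rAREG library did. Fits with a replicate block kept only numbers found in both groups. The block by title numbers thus lacked rAREG replicate 5, and the block by library numbers lacked rAREG replicate 4. With title numbers as a replicate block 302 genes passed, and Gh, Cga and Adipoq kept their calls. With library numbers as a block, Gh was at 0.90 (adjusted p = 0.077) and Adipoq at 1.00 (adjusted p = 0.090). Neither passed, nor did Aire (adjusted p = 0.059). Without rAREG replicate 4 and with no block, the edgeR adjusted p was 0.096 for Gh, 0.087 for Adipoq and 0.11 for Aire. The cause of the lost calls was not tested. RLE factors, total counts, no filter and the filter of 10 counts in 4 libraries left the calls of Gh, Cga and Adipoq in place. At 13 to 97 UMI counts per library for these 3 genes, counting error limits what can be told apart.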
